A study of Mus musculus with 64 samples.

Results

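The 10 Toll-like receptor (TLR) genes Tlr1, Tlr2, Tlr3, Tlr4, Tlr5, Tlr6, Tlr7, Tlr8, Tlr9 and Tlr13 were followed through 64 RNA-seq libraries of murine bone marrow-derived macrophages (BMMs). They were chosen by gene symbol, as 10 of the 55487 genes in the count files, and all 10 passed the filter on low counts that left 14537 genes for testing. BMMs came from female C57BL/6JRj mice (Ahr+/+) or from AhR knockout mice on C57BL/6 that had been back crossed in-house (Ahr-/-), aged 8 to 12 weeks, with 4 mice per genotype, and were grown with macrophage colony-stimulating factor from L929 cell supernatant. In all groups, cells were kept for 6 h with benzo[a]pyrene (BaP, 1 µM), indole-3-carbinol (I3C, 10 µM) or the vehicle DMSO (0.01%). They were then activated with 10000000 heat-killed Salmonella enterica Serovar Enteritidis (hkSE) per ml for 3 h or 20 h, and at each time point 1 group per genotype received DMSO without hkSE. This gave 16 groups of 4 libraries, in which no ligand was tested without hkSE, and the Ahr deletion was present in every cell of the mouse rather than in macrophages alone.

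TLRs are membrane receptors of innate immune cells that recognise conserved microbial molecules through leucine-rich repeats and signal through a cytoplasmic TIR domain. At the cell surface, TLR2 pairs with TLR1 or TLR6 to bind bacterial lipopeptides, TLR4 with its co-receptor MD-2 binds lipopolysaccharide, and TLR5 binds flagellin. In endosomes, TLR3 senses double-stranded RNA, TLR7 and TLR8 sense single-stranded RNA, mouse TLR13 senses bacterial ribosomal RNA and TLR9 senses DNA with unmethylated CpG. Apart from TLR3, which uses the adaptor TRIF, these receptors signal through MyD88 towards NF-κB, and TLR4 uses both adaptors. AhR, the aryl hydrocarbon receptor, acts as a transcription factor once a ligand is bound, BaP and I3C are sources of such ligands, and the study asked how AhR ligands alter the response of BMMs to bacteria.

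In the mouse genome (GRCm38), Tlr1 (chr5:64924679-64933563) and Tlr6 (chr5:64952031-64960097) lie 18467 bases apart on the minus strand. Tlr7 (chrX:167304929-167330558) and Tlr8 (chrX:167242696-167264329) lie 40599 bases apart on the minus strand of the X chromosome, which also holds Tlr13 (chrX:106143204-106160493). The others are single, Tlr2 at chr3:83836272-83841767, Tlr3 at chr8:45395665-45411080, Tlr4 at chr4:66827584-66930284, Tlr5 at chr1:182954788-182976044 and Tlr9 at chr9:106222598-106226883. Of the stretches of 100 bases in the transcripts of Tlr1 and Tlr6, 259 were shared, which is 7.89% of those of Tlr1 and 7.09% of those of Tlr6. Reads wholly within them match both genes. Reads without a unique alignment were kept apart from all genes in the counting (12.4% to 15.8% of each library). The exons of Tlr3 overlap 381 bases of the antisense gene Gm45542 and were counted by strand.

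RefSeq promoter windows (GRCm38.p6) were at hand for 8 of the 10 genes and are shown for 4 whose transcripts moved differently with hkSE: Tlr2 and Tlr3, Tlr6, and Tlr9. Each is printed 5′ to 3′ on the gene's strand, from 250 bases before the start to 10 bases after it, and capitals mark the motifs named below.
Tlr2, chr3:83841599-83841858, minus strand: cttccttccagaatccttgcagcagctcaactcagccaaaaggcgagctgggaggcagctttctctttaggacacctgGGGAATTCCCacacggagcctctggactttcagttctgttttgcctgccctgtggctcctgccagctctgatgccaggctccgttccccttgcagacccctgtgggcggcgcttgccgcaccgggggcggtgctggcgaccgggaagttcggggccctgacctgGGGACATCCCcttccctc
Tlr3, chr8:45410371-45410630, minus strand: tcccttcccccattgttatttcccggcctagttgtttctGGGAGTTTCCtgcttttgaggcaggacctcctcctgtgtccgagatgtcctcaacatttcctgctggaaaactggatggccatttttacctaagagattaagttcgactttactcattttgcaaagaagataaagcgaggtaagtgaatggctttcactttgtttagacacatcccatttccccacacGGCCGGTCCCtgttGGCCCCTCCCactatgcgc
Tlr6, the start nearer the gene's 3′ end, chr5:64959157-64959416, minus strand: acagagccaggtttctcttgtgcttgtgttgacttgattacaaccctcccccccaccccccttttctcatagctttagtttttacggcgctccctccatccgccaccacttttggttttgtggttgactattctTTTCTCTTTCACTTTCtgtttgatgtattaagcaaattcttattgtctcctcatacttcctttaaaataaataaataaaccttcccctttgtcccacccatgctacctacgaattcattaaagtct
Tlr9, chr9:106222348-106222607, plus strand: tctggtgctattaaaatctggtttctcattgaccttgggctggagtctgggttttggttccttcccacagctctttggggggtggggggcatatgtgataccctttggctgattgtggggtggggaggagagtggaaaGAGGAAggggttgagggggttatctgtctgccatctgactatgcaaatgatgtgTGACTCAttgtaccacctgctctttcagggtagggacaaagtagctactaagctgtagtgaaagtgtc
In the Tlr2 and Tlr3 windows, capitals mark the kappa B motif (GGGA, any 4 bases, CC), present on either strand in 20.7% of 32851 windows of 300 bases. Tlr2 holds it at positions 79 to 88 and 243 to 252 and Tlr3 at 40 to 49, 228 to 237 and 242 to 251, counted from the first base printed. A window of Tlr5, not printed, also holds it, at 231 to 240. In the Tlr6 window, they mark 2 overlapping matches of the interferon-stimulated response element (GAAA, any 2 bases, GAAA), read on the other strand, which 3.44% of windows hold. In the Tlr9 window, they mark the AP-1 motif TGANTCA (7.81% of windows) and 1 match of the PU.1 motif GAGGAA (28.3% of windows). The core AhR response element GCGTG, which 32.4% of windows hold, was in none of the 10 windows of the 8 genes. Neither were AHRE II (CATG, any 6 bases, then CATG or CTTG) and the RelB AHRE (GGGTG followed by CAT), which at most 0.95% of windows hold. The paper searched a much longer stretch upstream of the start and lists Tlr9 as holding an AhR response element. The GAS element (TTC, any 3 bases, GAA; 8.3% of windows) was found in windows of Tlr1, Tlr6 and Tlr8. Both strands were searched, and these are matches of letters in short windows and say nothing of binding, here or elsewhere in the genes.

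Libraries held 12152496 to 50644601 counts on genes, apart from 1 unactivated Ahr+/+ library at 20 h with 233047331. The summed level of 9 macrophage markers was 17350 to 32770 CPM, that is counts scaled to an equal library size, in every library. T and NK cell markers summed to at most 0.192 CPM and erythroid markers were at 0, whereas 8 neutrophil markers reached 273 CPM, mostly S100a8, S100a9 and Ngp. Ahr counts over the whole gene did not check the deletion, as they were higher in Ahr-/- than in Ahr+/+ BMMs (12.9 against 7.01 CPM with hkSE at 3 h). As a check of AhR function, Ahrr, the AhR repressor and an AhR target, rose with BaP in Ahr+/+ BMMs at 3 h from 0.514 to 5.37 CPM (log2 fold change 3.36, edgeR adjusted p = 7.13e-14) and was 0.235 CPM with DMSO and 0.184 CPM with BaP in Ahr-/- BMMs. As a check of activation, Tnf rose in Ahr+/+ BMMs at 3 h from 24.5 to 5047 CPM (log2 fold change 7.68, edgeR adjusted p = 2.61e-42). Values below are CPM scaled by the TMM method, tests are edgeR quasi-likelihood tests, and a gene was called at an adjusted p below 0.01. In bulk RNA, fewer cells of a type and less RNA per cell cannot be told apart.

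Of the 10 genes, 9 were counted in all 64 libraries, with at least 164 counts per library. Tlr5 was the exception, with counts in 46 libraries and 0 in 18, and a highest level of 5.37 CPM. Of the mouse TLR genes that are not among these 10, Tlr11 had 164 counts in 37 libraries in all, at most 0.703 CPM, and Tlr12 had 10 counts in 8 libraries, so both were at or near the limit of detection. Among the 9 genes counted in all libraries, Tlr3 had the widest span between its lowest and highest library, 34.6-fold. It was followed by Tlr13 (18.9-fold) and Tlr2 (16.5-fold), and no ratio can be given for Tlr5, whose lowest value was 0. Tlr6 had the narrowest, 3.49-fold.

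To compare levels between genes, CPM were divided by the length of the merged exons in kilobases. In unactivated Ahr+/+ BMMs at 3 h, Tlr13 stood highest at 112 ± 13.2 CPM per kb (SD, n = 4), 47.7% of the sum of the 10 genes, and did not overlap the next. Tlr8 (36.3 ± 8.59), Tlr2 (30.2 ± 1.94) and Tlr7 (23.3 ± 7.33) came next and overlapped their neighbours in this order, as did Tlr4 (11.7 ± 3.22) and Tlr1 (7.83 ± 1.45). Tlr6 (5.26 ± 0.278) and Tlr9 (4.51 ± 0.592) also overlapped each other, above Tlr3 (3.06 ± 0.68) and Tlr5 (0.541 ± 0.116).

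After 3 h with hkSE, Tlr2 held 58.6% of the sum, at 376 ± 19.7 CPM per kb. It was followed by Tlr7 (86.2 ± 7.95), Tlr8 (55.1 ± 3.45), Tlr1 (41.6 ± 4.01) and Tlr3 (38.5 ± 7.81), of which only Tlr1 and Tlr3 overlapped each other. Tlr13 had moved from first to the sixth place, at 20.6 ± 1.79. The sum over the 10 genes was 235 ± 33.3 CPM per kb unactivated and 641 ± 17.6 with hkSE.

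At 20 h with hkSE the sum was 347 ± 31 CPM per kb in Ahr+/+ BMMs, against 240 ± 20.8 unactivated. Tlr2 led with 206 ± 24.6, ahead of Tlr1 with 58.8 ± 4.01, Tlr7 with 32.5 ± 4.84 and Tlr13 with 17.7 ± 2.11, and no neighbours among these overlapped. Places 5 to 9, from Tlr8 (8.59 ± 2.6) to Tlr4 (4.02 ± 1.11), each overlapped the next. The first 5 places were the same in Ahr-/- BMMs at this time, with Tlr2 at 272 ± 15 and 67.4% of the sum, while Tlr9 was ninth at 2.47 ± 0.5.

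**Figure D1:**
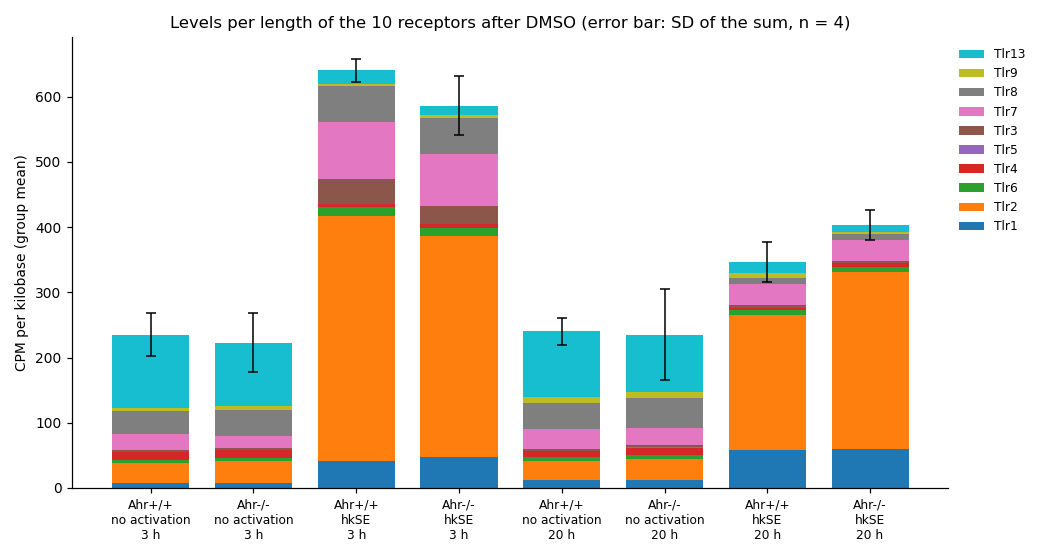
Stacked bars of the mean level of each of the 10 genes in CPM per kilobase of exon, for the 8 groups that received DMSO (4 libraries each), with the SD of the sum as an error bar. Tlr13 is the widest band without activation and Tlr2 the widest with hkSE, where the sum in Ahr+/+ BMMs is 641 at 3 h and 347 at 20 h.

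Activation by hkSE moved most of the genes, in both directions. At 3 h, 8 of 10 were called in Ahr+/+ BMMs, 5 higher and 3 lower, where 56.6% of all genes tested were called (24.2% higher and 32.3% lower). The same numbers were called in Ahr-/- BMMs at 3 h, where 57.3% of all genes were called (25.5% higher and 31.8% lower). At 20 h, 7 were called in Ahr+/+ BMMs, 3 higher and 4 lower, beside 58.6% of all genes (29.9% higher and 28.7% lower). In Ahr-/- BMMs at 20 h, 6 were called, 2 higher and 4 lower, beside 54.3% of all genes (28.3% higher and 26% lower). Activated and unactivated libraries did not overlap in 9 and 8 of the 10 genes in Ahr+/+ BMMs at 3 h and 20 h (62.8% and 65.9% of all genes) and in 7 and 6 in Ahr-/- BMMs (55.2% and 51.6%). The median log2 fold change of the 10 was 0.98 at 3 h and -0.19 at 20 h in Ahr+/+ BMMs, beside -0.10 and -0.00 over all genes tested. Calls were common among all genes each time, and nothing particular to the TLR genes is read from these counts. Summed neutrophil markers moved with activation at 3 h, from 15.7 to 43.9 CPM unactivated to 111 to 261 CPM with hkSE in Ahr+/+ BMMs and from 20.7 to 25 to 115 to 118 CPM in Ahr-/- BMMs. Of these markers, Ly6g, Mpo and Elane were at most 0.482 CPM in every library. The others reached 111 CPM (S100a9), 73.0 CPM (S100a8), 56.4 CPM (Ngp), 27.7 CPM (Ltf) and 5.29 CPM (Camp). At 20 h, summed plasmacytoid dendritic cell markers went from 0.597 to 0.816 CPM unactivated to 17.8 to 21.7 CPM with hkSE in Ahr+/+ BMMs and from 0.691 to 1.11 to 14.0 to 20.2 CPM in Ahr-/- BMMs, mostly Cox6a2. Summed B cell markers went from 3.73 to 5.41 to 0.532 to 0.88 CPM in Ahr+/+ and from 4.89 to 6.27 to 0.994 to 1.61 CPM in Ahr-/- BMMs. The macrophage marker sum was lower with hkSE at 20 h, with means of 27401 and 19797 CPM in Ahr+/+ and 30037 and 23775 CPM in Ahr-/- BMMs. The part of all these markers in the results was not tested.

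**Figure D2:**
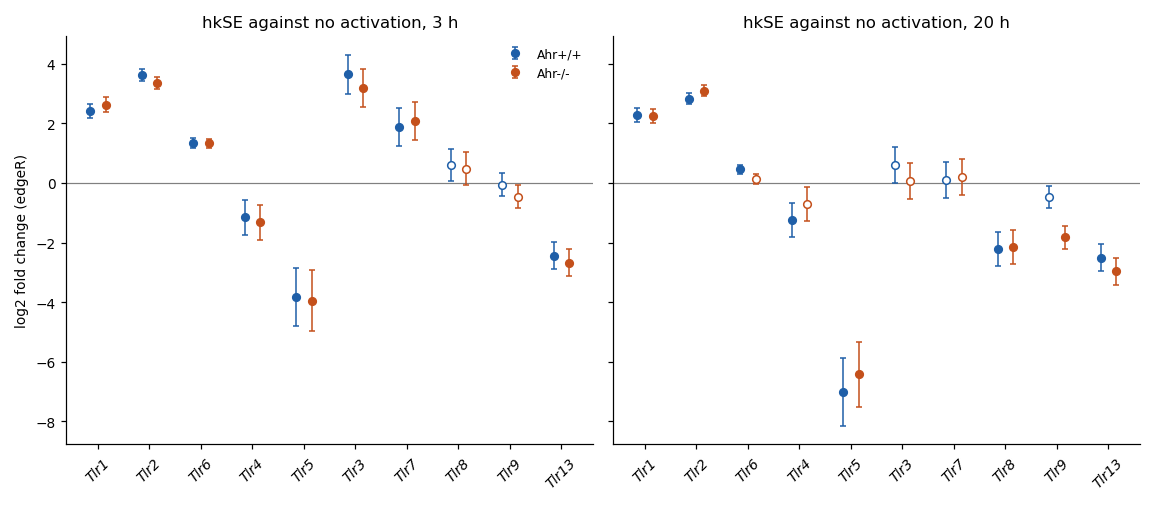
Log2 fold change of each gene with hkSE against no activation after DMSO at 3 h (left) and 20 h (right), with 95% confidence intervals from edgeR, in Ahr+/+ (blue) and Ahr-/- (orange) BMMs. Filled points are called at an adjusted p below 0.01 and open points are not. Tlr2 and Tlr1 lie above 0 and Tlr13 and Tlr5 below 0 in all 4 comparisons.

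Among the surface receptors, Tlr2, which binds lipopeptides as a partner of TLR1 or TLR6, was the most abundant TLR transcript after activation. In Ahr+/+ BMMs at 3 h, it was 88.0, 92.3, 85.4 and 98.7 CPM in unactivated libraries 1 to 4 and 1172, 1089, 1194 and 1074 CPM with hkSE. Ahr-/- libraries held 99.3, 88.4, 109 and 105 CPM and then 1049, 995, 1062 and 992 CPM. The groups lay far apart in both genotypes. The rise was 12.4-fold in Ahr+/+ (log2 fold change 3.64, standard error 0.10, edgeR adjusted p = 7.97e-37) and 10.2-fold in Ahr-/- BMMs (log2 3.35, edgeR adjusted p = 1.97e-35). At 20 h, Ahr+/+ libraries held 72.4, 95.4, 86.7 and 95.9 CPM unactivated and 607, 651, 525 and 700 CPM with hkSE, a 7.08-fold rise (log2 2.82, edgeR adjusted p = 1.96e-32). Ahr-/- libraries at 20 h held 76.1, 89.9, 110 and 108 CPM and then 854, 844, 754 and 832 CPM, an 8.55-fold rise (log2 3.10, edgeR adjusted p = 6.66e-34). All 8 activated libraries at 20 h were thus below all 8 at 3 h and above all unactivated ones.

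Tlr1, a partner of TLR2 for triacylated lipopeptides, rose at both times and was higher at 20 h than at 3 h. In Ahr+/+ BMMs at 3 h it was 22.6, 31.7, 21.7 and 28.9 CPM unactivated and 125, 156, 132 and 143 CPM with hkSE (5.30-fold higher, log2 2.40, edgeR adjusted p = 2.48e-25). At 20 h it was 38.6, 46.6, 36.2 and 41.0 CPM and then 190, 209, 181 and 207 CPM (4.85-fold higher, log2 2.28, edgeR adjusted p = 1.3e-24). Activated libraries stood above unactivated ones without overlap at both times, and those at 20 h above those at 3 h. Activated Ahr-/- libraries held 168, 153, 151 and 155 CPM at 3 h and 175, 182, 214 and 220 CPM at 20 h, rises of 6.20-fold and 4.77-fold that were both called.

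Tlr6, the other partner of TLR2, moved in a narrower range. In Ahr+/+ BMMs it went from 20.0, 20.8, 18.3 and 19.4 CPM to 47.3, 50.6, 52.7 and 50.0 CPM at 3 h (2.55-fold higher, log2 1.35, edgeR adjusted p = 6.04e-21). At 20 h the Ahr+/+ libraries held 19.3, 23.8, 21.6 and 20.9 CPM unactivated and 29.9, 31.0, 27.1 and 29.4 CPM with hkSE (1.37-fold higher, log2 0.45, edgeR adjusted p = 2.27e-06). Neither pair of groups overlapped. At 20 h in Ahr-/- BMMs, 22.0, 21.6, 24.1 and 25.0 CPM stood beside 23.9, 22.3, 27.7 and 27.8 CPM, which overlapped and did not pass the test (log2 0.13, edgeR adjusted p = 0.158).

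Tlr4, the receptor of lipopolysaccharide, fell in 3 of the 4 comparisons. In Ahr+/+ BMMs at 3 h, its unactivated libraries held 64.5, 89.1, 45.7 and 61.8 CPM and its activated ones 30.3, 31.7, 27.6 and 28.5 CPM (2.21-fold lower, log2 -1.15, edgeR adjusted p = 0.000547, or 0.0164 with the identifier series of the libraries as a covariate). At 20 h they held 52.0, 58.3, 53.5 and 46.3 CPM and 27.0, 28.1, 15.9 and 18.3 CPM (2.36-fold lower, log2 -1.24, edgeR adjusted p = 0.000184). In neither case did the groups overlap. At 3 h in Ahr-/- BMMs, the fall from 87.6, 36.4, 65.4 and 80.2 CPM to 19.1, 16.2, 37.4 and 35.3 CPM was called as well (log2 -1.32, edgeR adjusted p = 8.42e-05), although the highest activated library lay above the lowest unactivated one. At 20 h, 37.1, 35.4, 90.4 and 84.4 CPM stood beside 29.7, 29.2, 44.2 and 49.7 CPM in Ahr-/- BMMs (log2 -0.70, edgeR adjusted p = 0.029, or 0.000829 with a replicate block, a fit in which each replicate number of a genotype has its own level).

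Tlr5, the flagellin receptor, was low without hkSE and close to undetected with it. Unactivated Ahr+/+ libraries held 1.95, 3.24, 2.81 and 2.37 CPM at 3 h and 3.42, 5.37, 3.02 and 2.58 CPM at 20 h, and Ahr-/- libraries 3.26, 1.88, 1.31 and 1.08 CPM and 2.84, 3.34, 2.83 and 2.44 CPM. Summed over the 4 libraries of a group, hkSE took Tlr5 from 276 to 11 counts in Ahr+/+ and from 220 to 9 counts in Ahr-/- BMMs at 3 h. Relative to depth, these are 15.2-fold (95% counting interval 8.39 to 30.9) and 16.5-fold (8.52 to 36.5) lower levels. At 20 h, 1120 and 397 counts without hkSE stood beside 3 and 4 counts with it, 124-fold (42.3 to 601) and 96.0-fold (37.2 to 354) lower. All 4 falls passed the edgeR test, the weakest with an adjusted p of 1.52e-09. With hkSE and I3C at 20 h, Ahr-/- BMMs had 0 counts of Tlr5 in 4 libraries, where 3 counts would be 0.0231 CPM.

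Among the endosomal receptors, Tlr3, the sensor of double-stranded RNA, showed a large and brief rise. In Ahr+/+ BMMs at 3 h it went from 15.7, 20.1, 11.5 and 16.3 CPM to 211, 250, 154 and 187 CPM (12.5-fold higher, log2 3.65, edgeR adjusted p = 1.18e-14). In Ahr-/- BMMs it went from 18.8, 9.29, 17.7 and 17.6 CPM to 122, 100, 180 and 170 CPM (9.04-fold higher, log2 3.18, edgeR adjusted p = 6.68e-13). At 20 h, the activated Ahr+/+ libraries were back at 26.1, 23.9, 19.5 and 17.6 CPM, all still above the unactivated ones at 15.3, 15.5, 14.2 and 12.5 CPM. That difference was not called (log2 0.60, edgeR adjusted p = 0.0745), but passed with a replicate block (adjusted p = 0.00108). At 20 h in Ahr-/- BMMs, 11.8, 10.1, 20.6 and 19.9 CPM overlapped with 9.97, 10.6, 24.9 and 21.0 CPM (log2 0.08, edgeR adjusted p = 0.844).

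Tlr7, a sensor of single-stranded RNA, followed a similar course with a smaller rise. In Ahr+/+ BMMs at 3 h, unactivated libraries held 99.3, 128, 55.2 and 98.4 CPM and activated ones 344, 397, 321 and 345 CPM (3.69-fold higher, log2 1.88, edgeR adjusted p = 5.85e-07). Ahr-/- libraries went from 92.8, 40.6, 91.0 and 84.4 CPM to 253, 260, 408 and 388 CPM (4.24-fold higher, log2 2.08, edgeR adjusted p = 7.32e-08). The groups did not overlap in either genotype. At 20 h, unactivated and activated libraries overlapped, with means of 123 ± 17.7 and 133 ± 19.7 CPM in Ahr+/+ and of 111 ± 42.4 and 127 ± 59.1 CPM in Ahr-/- BMMs (edgeR adjusted p = 0.774 and 0.586).

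Its neighbour Tlr8 fell at 20 h in both genotypes. At 3 h, Ahr+/+ BMMs held 146, 157, 87.0 and 131 CPM unactivated and 184, 212, 203 and 192 CPM with hkSE. These groups did not overlap, yet the difference was not called (log2 0.60, edgeR adjusted p = 0.0508, or 0.00619 with a replicate block). At 20 h, 145, 186, 143 and 101 CPM unactivated fell to 29.9, 42.6, 30.9 and 19.9 CPM (4.67-fold lower, log2 -2.22, edgeR adjusted p = 1.21e-09). Ahr-/- libraries at 20 h fell from 101, 101, 235 and 220 CPM to 22.2, 33.4, 48.8 and 44.7 CPM (4.41-fold lower, log2 -2.14, edgeR adjusted p = 3.18e-09). Every activated library at 20 h was below every unactivated one.

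Tlr13, the sensor of bacterial ribosomal RNA and the most abundant TLR transcript without hkSE, fell in all 4 comparisons. In Ahr+/+ BMMs it went from 503, 496, 401 and 532 CPM to 91.4, 94.4, 77.3 and 91.2 CPM at 3 h (5.45-fold lower, log2 -2.45, edgeR adjusted p = 3.85e-14). At 20 h it went from 420, 418, 491 and 404 CPM to 79.7, 86.7, 72.4 and 65.7 CPM (5.69-fold lower, log2 -2.51, edgeR adjusted p = 1.48e-14). Ahr-/- libraries went from 451, 292, 448 and 473 CPM to 57.4, 44.8, 79.1 and 80.4 CPM at 3 h. At 20 h, they went from 310, 271, 465 and 478 CPM to 34.6, 38.5, 63.8 and 58.5 CPM. Activated and unactivated libraries were far apart throughout, and the falls in Ahr-/- BMMs were 6.36-fold and 7.80-fold (edgeR adjusted p = 2.43e-15 and 7.89e-17).

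**Figure D3:**
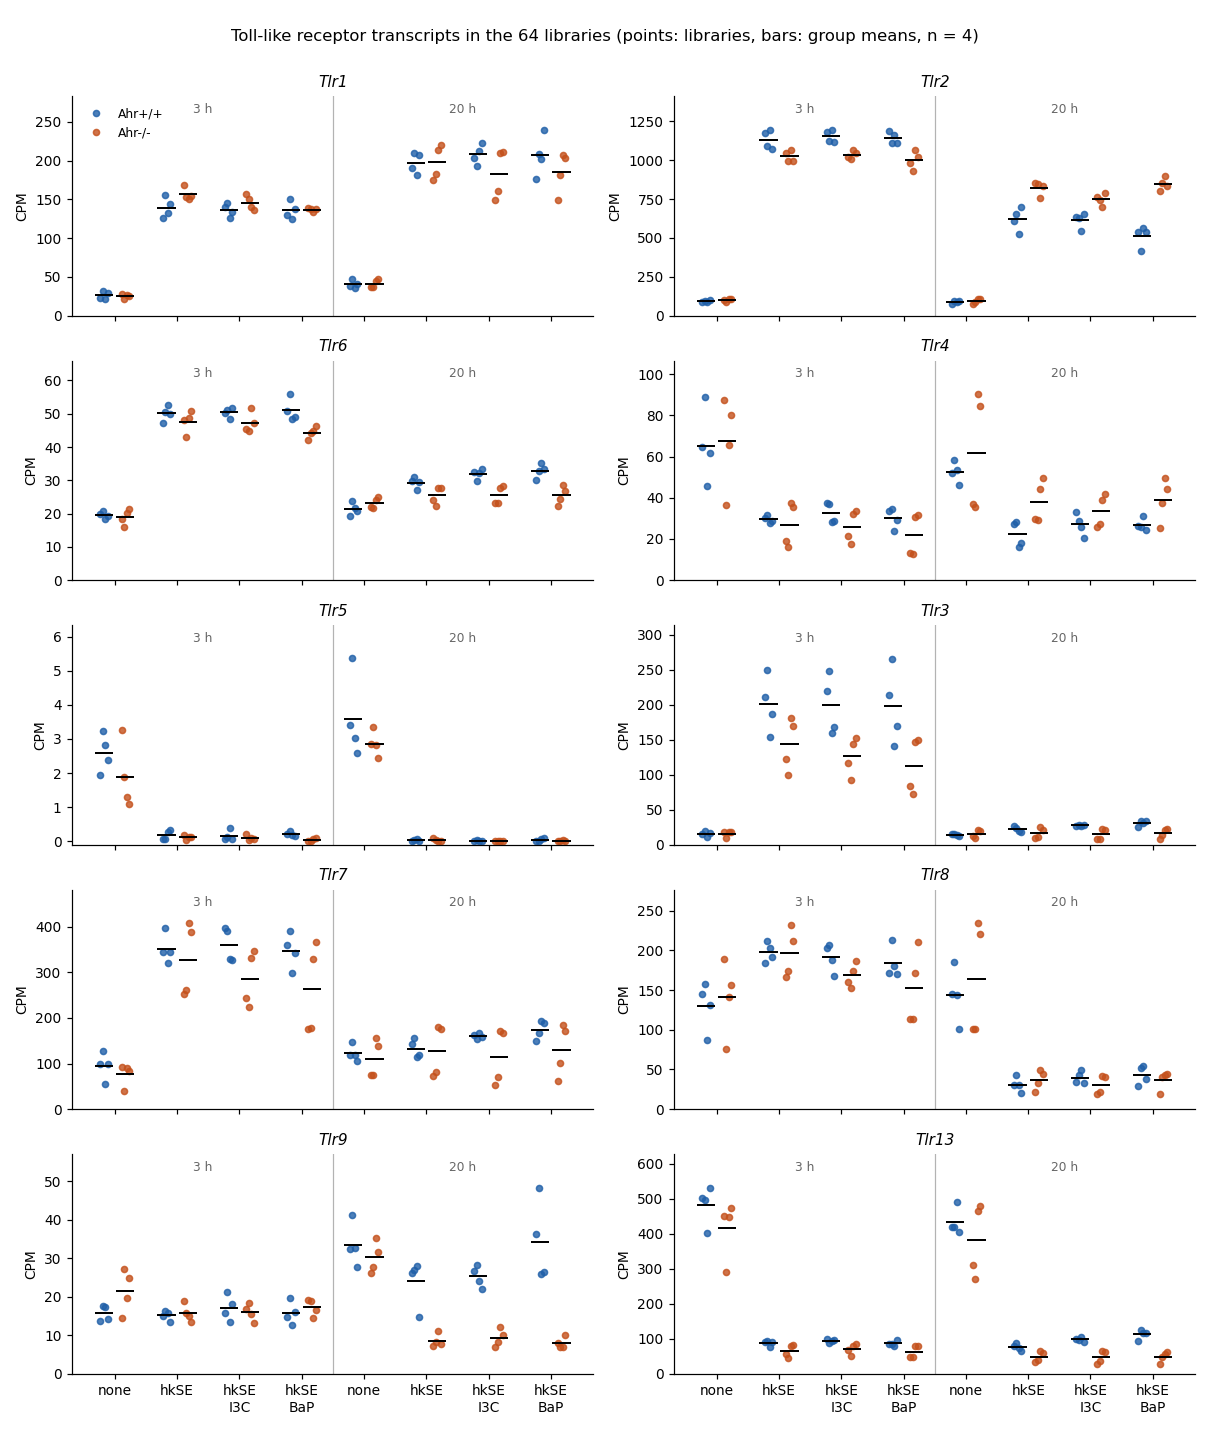
CPM of each gene in all 64 libraries (points) with group means (black bars, n = 4), by activation and ligand at 3 h and 20 h, in Ahr+/+ (blue) and Ahr-/- (orange) BMMs, on linear axes. Tlr9 with hkSE at 20 h is between 6.90 and 12.1 CPM in the 12 Ahr-/- libraries and between 14.8 and 48.4 CPM in the 12 Ahr+/+ libraries.

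Tlr9, the sensor of CpG DNA, was lower in Ahr-/- than in Ahr+/+ BMMs with hkSE at 20 h. At 3 h, Ahr+/+ libraries held 13.7, 17.7, 17.2 and 14.2 CPM unactivated and 15.1, 16.3, 15.6 and 13.4 CPM with hkSE, which overlapped (log2 -0.05, edgeR adjusted p = 0.825). Ahr-/- libraries held 14.5, 27.2, 19.7 and 24.9 CPM and 18.9, 15.7, 14.9 and 13.5 CPM at 3 h (log2 -0.46, edgeR adjusted p = 0.0317). At 20 h, unactivated libraries of the genotypes overlapped, with 32.4, 41.3, 32.8 and 27.8 CPM in Ahr+/+ and 26.2, 27.8, 35.4 and 31.6 CPM in Ahr-/- BMMs. With hkSE at 20 h, Ahr+/+ libraries held 26.2, 26.9, 28.1 and 14.8 CPM and Ahr-/- libraries 7.31, 8.32, 11.1 and 7.58 CPM. The lowest Ahr+/+ library, the fourth, was still above all 4 Ahr-/- libraries.

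Of the 10 genes, 2 were called between the genotypes with hkSE at 20 h, Tlr9 lower and Tlr2 higher in Ahr-/- BMMs, where 12.5% of all genes tested were called (5.06% higher and 7.39% lower). Tlr9 was 2.80-fold lower (log2 -1.49, standard error 0.19, edgeR adjusted p = 5.13e-08). Its fall with hkSE at 20 h was called in Ahr-/- BMMs (3.54-fold lower, log2 -1.82, edgeR adjusted p = 3.91e-12) and not in Ahr+/+ BMMs (log2 -0.48, edgeR adjusted p = 0.0179, or 0.00439 with a replicate block). The difference of these falls was itself called (log2 -1.34, standard error 0.26, edgeR adjusted p = 0.000431), as the only one of the 10 genes at 20 h (4.41% of all genes). Tlr6, at -0.32 (edgeR adjusted p = 0.0659), passed with a replicate block (adjusted p = 0.00458). The difference for Tlr9 passed in all 25 alternative analyses, with values from -1.52 to -1.14 and adjusted p from 1.67e-05 to 0.00942. Of these, 1 was the main fit at a looser threshold of 0.05, which it could not fail. In unactivated BMMs at 20 h, the genotypes differed in Tlr9 by -0.15 on the log2 scale (95% interval -0.51 to 0.22, edgeR adjusted p = 0.84), and in activated ones at 3 h by 0.05 (95% interval -0.34 to 0.44). At 3 h, the response to hkSE was not called as different between the genotypes in any of the 10 genes (0.0138% of all genes were called by edgeR). Of the 10, Tlr2 alone had an unadjusted p below 0.05 there (log2 -0.29, edgeR adjusted p = 0.758), as did 867 of 14537 genes tested.

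The genotypes were in the same order with a ligand. Over all activated libraries at 20 h, whether with DMSO, BaP or I3C, Tlr9 was 14.8 to 48.4 CPM in 12 Ahr+/+ libraries (median 26.5) and 6.90 to 12.1 CPM in 12 Ahr-/- libraries (median 8.08). At 3 h these ranges were 12.7 to 21.1 CPM and 13.2 to 19.1 CPM. The library identifiers in the files belong to 4 series, and at 20 h all 12 activated Ahr+/+ libraries bear identifiers of 1 series and all Ahr-/- libraries those of another, so that series and genotype cannot be told apart there. Unactivated Ahr-/- libraries at 20 h have the same series as the activated ones and held 26.2 to 35.4 CPM of Tlr9. Summed plasmacytoid dendritic cell markers with hkSE at 20 h were 17.8 to 21.7 CPM in Ahr+/+ and 14.0 to 20.2 CPM in Ahr-/- BMMs, mostly Cox6a2, with Siglech at most 0.147 CPM and Klk1 at 0 in every library. Summed B cell markers were 0.532 to 0.88 CPM and 0.994 to 1.61 CPM. The sum of 6 conventional dendritic cell markers, each under 1 CPM in the mean of every group, had the genotypes in the same order as Tlr9. With hkSE at 20 h after DMSO it was 0.897 to 2.11 CPM in Ahr+/+ and 0.15 to 0.552 CPM in Ahr-/- BMMs. With BaP it was 0.844 to 2.1 against 0.292 to 0.493 CPM, and with I3C 0.950 to 2.70 against 0.282 to 0.377 CPM. In unactivated BMMs at 20 h it was 0.377 to 0.698 CPM in Ahr+/+ and 0.369 to 0.495 CPM in Ahr-/-. Within Ahr+/+ BMMs at 20 h after DMSO, its mean was 0.561 CPM unactivated and 1.53 CPM with hkSE. The mean of Tlr9 went the other way there, with 33.6 and 24.0 CPM. The part of these markers in the Tlr9 difference was not tested.

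Tlr2 was 1.32-fold higher in Ahr-/- than in Ahr+/+ BMMs with hkSE at 20 h, with 754 to 854 CPM against 525 to 700 CPM and no overlap (log2 0.40, standard error 0.09, edgeR adjusted p = 0.000595). The call was lost with the identifier series as a covariate (adjusted p = 0.0164) and in a fit of the compared groups alone (adjusted p = 0.0232). At 3 h, Tlr2 was lower in all 4 Ahr-/- libraries, without overlap as in 12.1% of all genes tested, but the difference was not called (log2 -0.14, edgeR adjusted p = 0.391). With hkSE at 20 h, Tlr13 (log2 -0.64, edgeR adjusted p = 0.0284) and Tlr4 (log2 0.78, edgeR adjusted p = 0.0467) also had groups without overlap, and both were called with a random replicate block (adjusted p = 0.00294 and 0.0072). Such groups without overlap, higher or lower, occurred in this comparison in these 4 of the 10 genes and in 20.4% of all genes tested. None of the 10 was called between the genotypes without hkSE at 3 h or 20 h, or with hkSE at 3 h. In these comparisons 1.21%, 0.702% and 2.83% of all genes were called by edgeR. An unadjusted p below 0.05 was found in 1, 0 and 1 of the 10, beside 1452, 1814 and 2778 of 14537 genes tested.

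In the main edgeR fit, no difference of the 10 transcripts with an AhR ligand passed the threshold. BaP and I3C were each compared with DMSO among activated BMMs in both genotypes at both times, 80 tests in all. Of these, edgeR called 0, with 5 at an unadjusted p below 0.05. Of the 5, 4 were for BaP at 20 h in Ahr+/+ BMMs, where 1510 of 14537 genes tested had such a p. The remaining 1 was for I3C at 20 h in Ahr-/- BMMs, where 672 of 14537 genes tested had such a p. DESeq2 and limma on the deposited log2 values also called 0 here. By contrast, the paper's own DESeq2 analysis, at the same threshold, lists Tlr9 as raised by BaP at 20 h in Ahr+/+ BMMs and not in Ahr-/- BMMs. The reason for this difference was not tested. Calls were rare among all genes as well, with 0.0482% for BaP and 0.131% for I3C in Ahr+/+ BMMs after 3 h, and 0.234% and 0.509% after 20 h. The shares in Ahr-/- BMMs were 0.0275% and 0.0206% after 3 h, and 0.0138% and 0.206% after 20 h. With a replicate block, the share for BaP at 20 h in Ahr+/+ BMMs was 1.86%. At 3 h in Ahr+/+ BMMs, differences for the 9 genes other than Tlr5 were between -0.10 and 0.05 on the log2 scale with BaP and between -0.05 and 0.18 with I3C, and their 95% intervals reached from -0.65 to 0.62 and from -0.59 to 0.74.

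With BaP at 20 h in Ahr+/+ BMMs, 9 of 10 differences were above 0, with a median of 0.44 beside 0 over all genes. With BaP at 3 h in Ahr-/- BMMs, 1 of 10 was above 0, with a median of -0.24 beside 0.01 over all genes, and no TLR gene was called in either comparison. Tlr13 held 94.7, 126, 116 and 117 CPM with BaP against 79.7, 86.7, 72.4 and 65.7 CPM with DMSO. The groups did not overlap, as in 9.05% of all genes tested, and the difference missed the threshold (log2 0.58, 95% interval 0.14 to 1.01, edgeR adjusted p = 0.255), but passed with a replicate block (adjusted p = 0.00253). With I3C, Tlr13 held 97.6, 96.7, 106 and 90.1 CPM, again without overlap with DMSO, as in 5.58% of all genes tested (log2 0.36, 95% interval -0.07 to 0.79, edgeR adjusted p = 1). In Ahr-/- BMMs, Tlr13 was 34.6 to 63.8 CPM with DMSO, 28.2 to 63.3 CPM with BaP and 28.1 to 65.7 CPM with I3C, 3 ranges that overlapped almost wholly.

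Tlr2 was the exception to the direction, with 538, 413, 561 and 539 CPM with BaP against 607, 651, 525 and 700 CPM with DMSO at 20 h in Ahr+/+ BMMs (log2 -0.28, 95% interval -0.45 to -0.10, edgeR adjusted p = 0.146). With I3C it was 633, 626, 546 and 653 CPM (log2 -0.02, 95% interval -0.19 to 0.16). Tlr9 was 36.4, 48.4, 25.8 and 26.3 CPM with BaP against 26.2, 26.9, 28.1 and 14.8 CPM with DMSO (log2 0.51, 95% interval 0.14 to 0.88, edgeR adjusted p = 0.224), and these overlapped. With I3C it was 26.7, 28.3, 24.2 and 22.0 CPM (log2 0.08, 95% interval -0.29 to 0.45).

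**Figure D4:**
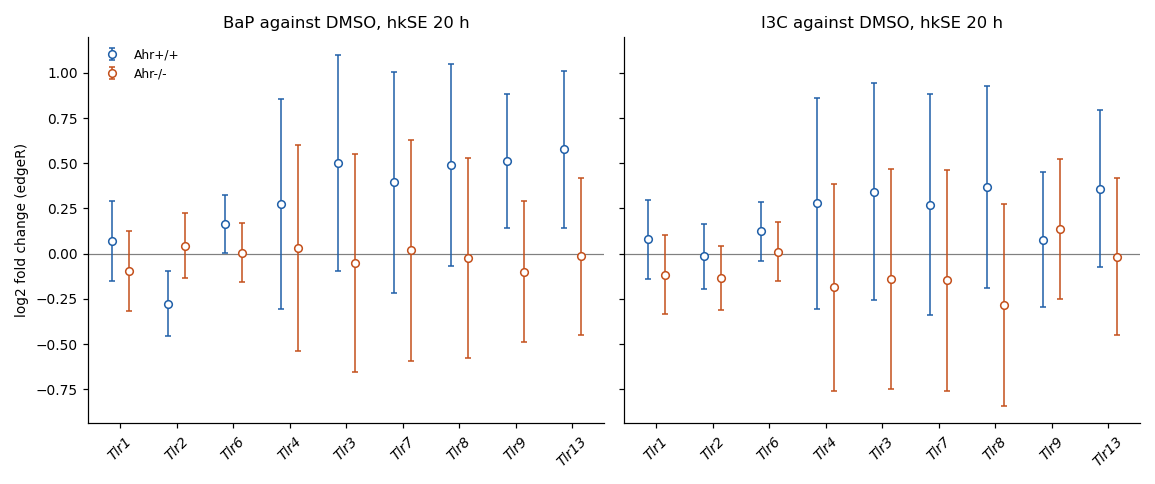
Log2 fold change of 9 TLR genes (without Tlr5) with BaP (left) or I3C (right) against DMSO in BMMs activated with hkSE for 20 h, with 95% confidence intervals from edgeR, in Ahr+/+ (blue) and Ahr-/- (orange) BMMs. All points are open, as none was called at an adjusted p below 0.01, and in Ahr+/+ BMMs with BaP Tlr13 is highest at 0.58 and Tlr2 lowest at -0.28.

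The test of a ligand difference between the genotypes called 0 of 40. Of these, 2 had an unadjusted p below 0.05, both for BaP at 20 h, where 679 of 14537 genes tested had such a p. The 2 were Tlr9 (0.61 higher in Ahr+/+ on the log2 scale, edgeR adjusted p = 0.94) and Tlr2 (-0.32, edgeR adjusted p = 0.839). Among all genes, 0.0138% were called for BaP at 3 h and 0% in the other 3 of these comparisons. BaP against I3C in Ahr+/+ BMMs gave 0 calls of 20 as well (0.11% of all genes were called at 3 h and 0.282% at 20 h). An unadjusted p below 0.05 was found in 2 TLR genes, both at 20 h, beside 830 of 14537 genes tested. BaP and I3C differed by -0.26 in Tlr2 (95% interval -0.44 to -0.08, edgeR adjusted p = 0.331) and by 0.43 in Tlr9 (95% interval 0.06 to 0.80, edgeR adjusted p = 0.697). The doses of the ligands differed, at 1 µM and 10 µM.

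The levels of the other genes are given over the 8 ligand libraries of a genotype and time. Tlr1 was 125 to 151 CPM at 3 h and 177 to 240 CPM at 20 h in Ahr+/+ BMMs and 134 to 157 and 149 to 211 CPM in Ahr-/- BMMs. Tlr3 was 142 to 266 CPM and then 24.6 to 33.8 CPM in Ahr+/+ BMMs and 72.5 to 152 and 7.69 to 22.5 CPM in Ahr-/- BMMs. Tlr7 was 298 to 397 and 149 to 193 CPM in Ahr+/+ and 176 to 367 and 54.0 to 183 CPM in Ahr-/- BMMs. The Ahr-/- ranges were the wider ones for Tlr7 at both times. Tlr4 was 24.1 to 37.5 and 20.6 to 32.9 CPM in Ahr+/+ and 12.7 to 33.4 and 25.1 to 49.5 CPM in Ahr-/- BMMs. Tlr6 was 48.4 to 55.9 and 29.8 to 35.1 CPM in Ahr+/+ and 42.1 to 51.6 and 22.3 to 28.6 CPM in Ahr-/- BMMs. Tlr8 was 168 to 213 and 29.0 to 54.8 CPM in Ahr+/+ and 114 to 211 and 18.6 to 44.4 CPM in Ahr-/- BMMs. With DMSO at 20 h, activated Ahr+/+ libraries held 181 to 209 CPM (Tlr1), 17.6 to 26.1 (Tlr3) and 113 to 156 (Tlr7). They held 15.9 to 28.1 CPM (Tlr4), 27.1 to 31.0 (Tlr6) and 19.9 to 42.6 (Tlr8). The highest of the 8 ligand libraries was above the highest of these 4 in each gene, but more libraries favour a higher maximum. In Ahr-/- BMMs the highest DMSO library was above the ligand ones for Tlr1 (220 CPM), Tlr3 (24.9), Tlr4 (49.7) and Tlr8 (48.8). It was below their highest for Tlr6 (27.8) and Tlr7 (181). None of these genes was called with a ligand.

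The time points were also compared directly. Without hkSE, 2 genes were higher at 20 h than at 3 h in Ahr+/+ BMMs (6.07% of all genes were called), Tlr1 (log2 0.63, edgeR adjusted p = 6.72e-05) and Tlr9 (log2 1.09, edgeR adjusted p = 3.56e-05). It was Tlr1 alone in Ahr-/- BMMs (log2 0.72, edgeR adjusted p = 5.82e-06; 6.98% of all genes), with Tlr6 at log2 0.29 (edgeR adjusted p = 0.0115, or 0.0003 with a replicate block). With hkSE, 8 genes differed between the times in Ahr+/+ BMMs (59.5% of all genes, 33% higher and 26.4% lower). Higher at 20 h were Tlr1 (log2 0.50) and Tlr9 (log2 0.66), and lower were Tlr2 (-0.87), Tlr3 (-3.21), Tlr5 (-2.72), Tlr6 (-0.77), Tlr7 (-1.41) and Tlr8 (-2.68). In Ahr-/- BMMs, 7 differed (56% of all genes, 31.7% higher and 24.3% lower), of which Tlr1 was higher (log2 0.34) and Tlr2 (-0.32), Tlr3 (-3.10), Tlr6 (-0.90), Tlr7 (-1.36), Tlr8 (-2.39) and Tlr9 (-0.88) were lower. Tlr9 was thus called higher at 20 h in activated Ahr+/+ BMMs (edgeR adjusted p = 0.00204) and lower in activated Ahr-/- BMMs (edgeR adjusted p = 8.91e-05). The call in Ahr+/+ BMMs was lost when 1 of 4 libraries was left out (activated 3 h libraries 1, 3 or 4, or 20 h library 3), with adjusted p from 0.0117 to 0.025, and that in Ahr-/- BMMs with the identifier series as a covariate (adjusted p = 0.0147). The rise of Tlr1 in activated Ahr-/- BMMs (edgeR adjusted p = 0.00619) was not called with that covariate (log2 0.10), with DESeq2 (0.24) or in the compared groups alone (0.28). Under a replicate block, Tlr13 (-0.43, adjusted p = 0.00225) and Tlr4 (0.54, adjusted p = 0.00488) were called as well in activated Ahr-/- BMMs. With DMSO and hkSE, all Ahr-/- libraries bear identifiers of 1 series at 3 h and of another at 20 h. Series and time cannot be told apart in that comparison.

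The change with hkSE itself differed between the times in 6 of 10 genes in Ahr+/+ BMMs (47.8% of all genes) and in 5 of 10 in Ahr-/- BMMs (44.7%). In all of them the log2 fold change was lower at 20 h than at 3 h. Tlr3 (-3.05 and -3.10 in Ahr+/+ and Ahr-/-), Tlr8 (-2.82 and -2.62), Tlr7 (-1.78 and -1.88) and Tlr6 (-0.90 and -1.19) were called in both genotypes, Tlr2 (-0.81) and Tlr5 (-3.17) in Ahr+/+ BMMs and Tlr9 (-1.37) in Ahr-/- BMMs. Tlr1 and Tlr13 were not called in either, with differences of -0.13 and -0.06 in Ahr+/+ BMMs. Under a replicate block, Tlr4 (0.77, adjusted p = 0.00463) and Tlr1 (-0.38, adjusted p = 0.00933) were called in Ahr-/- BMMs. The differences in Ahr-/- BMMs include the activated groups in which identifier series and time coincide.

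Other genes of the pathway moved with hkSE too. Of 5 TIR adaptors, 4 were called higher and 1 lower in Ahr+/+ BMMs at 3 h. Of all genes tested, 24.2% were higher and 32.3% lower at 3 h in this genotype, and 29.9% higher and 28.7% lower at 20 h, which are the shares to set beside the counts of each list. Myd88, the adaptor of most TLRs, rose from 88.6 to 548 CPM (log2 2.63, edgeR adjusted p = 4.68e-35), and Sarm1, a TIR protein with low counts, fell (log2 -3.37). At 20 h 3 were higher and 1 lower, among them Ticam2, the bridging adaptor of TLR4 (log2 2.55), and Ticam1, which encodes TRIF (log2 1.25). Of 17 accessory proteins and co-receptors, 6 were higher and 2 lower at 3 h, and 4 higher and 8 lower at 20 h. Slc15a3, an endolysosomal transporter (log2 2.35 and 2.96), and Cd14, the co-receptor of TLR4 (1.65 and 1.08), were higher at both times, and Ly96, which encodes MD-2, at 3 h (1.02). Cd36 (-2.37) and Cd180 (-1.50) were lower at 20 h, and Unc93b1, the chaperone that takes TLRs to endosomes, was slightly higher (0.37, edgeR adjusted p = 0.00262).

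Of 18 signalling kinases and ligases, 9 were higher and 3 lower at 3 h and 11 higher and 1 lower at 20 h in Ahr+/+ BMMs, led by the ubiquitin ligase gene Peli1 (log2 4.94 and 3.02), with Map3k8 at 3 h (3.38) and Irak2 at 20 h (1.53). Of 17 negative regulators, 11 were higher and 4 lower at 3 h, and 10 higher and 5 lower at 20 h. Socs1 (8.47 and 5.72), Tnfaip3 (5.29 at 3 h) and Irak3 (2.44 and 3.45) were higher, and Il1rl1 was lower at 20 h (-7.14, from 1.66 to 0.00532 CPM). The counts of higher and lower genes of the 4 lists, in this order, were 4 and 0, 4 and 2, 9 and 3, and 12 and 4 in Ahr-/- BMMs after 3 h. After 20 h they were 4 and 1, 4 and 9, 11 and 2, and 9 and 5. The shares of all genes in Ahr-/- BMMs were 25.5% higher and 31.8% lower at 3 h and 28.3% and 26% at 20 h. The median log2 fold changes in Ahr+/+ BMMs at 3 h were 0.66, 0.26, 0.47 and 1.76 for the lists, beside -0.10 over all genes.

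Between the genotypes with hkSE at 20 h, 2 of 5 adaptors, 6 of 17 accessory genes and 3 of 17 negative regulators were lower in Ahr-/- BMMs, and 2 of 18 kinases and ligases were higher, beside 7.39% lower and 5.06% higher of all genes tested. The adaptors were Ticam1 (40.9 against 64.3 CPM, log2 -0.65, edgeR adjusted p = 0.000551) and Ticam2 (-0.46, edgeR adjusted p = 0.00241). Among the accessory genes was Lgmn, a protease that processes endosomal TLRs (log2 -0.88, edgeR adjusted p = 1.84e-09), and Ctsb (-0.52) and Ctsl (-0.45) encode cathepsins. The remaining ones, Slc15a4 (-0.49), Slc15a3 (-0.41) and Cd36 (-0.85), are transporter or scavenger receptor genes. The kinase genes were Ikbkb (0.35) and Map3k8 (0.38), and the negative regulators Atf3 (-0.90), Pik3ap1 (-0.45) and Trafd1 (-0.71). The difference of the hkSE response between the genotypes at 20 h was called for Lgmn, Ctss, Ctsb, Slc15a4 and Ly86, from -0.42 for Ctsb to -0.91 for Lgmn, for Ticam2 (-0.86), and for Atf3 (-1.01) and Trafd1 (-0.71), beside 4.41% of all genes tested. Most genes of these last comparisons were named after their values were seen. No gene of the 4 lists was called in any comparison of a ligand with DMSO.

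Over the 16 group means of log2 CPM, which share the fit and the control groups, the genes most like each TLR gene were found by Pearson's r, as a description. For Tlr2 these were Stim2 (r = 0.997), Kalrn and Socs3, for Tlr3 Rnf139 (0.997), March5 and Xrn1, and for Tlr1 Zdhhc2 (0.992), Lta and Taf15. For Tlr6 they were H3f3b (0.994), Gm5970 and Parp8, for Tlr7 Tent2 (0.99), Carhsp1 and Cnp, and for Tlr8 Ap1s3 (0.993), Tiam1 and Ptpro. For Tlr13 they were Hip1 (0.994), Nceh1 and Bcar3, for Tlr4 Clcn4 (0.972), Ikbip and Fig4, and for Tlr5 Wdr90 (0.989), Etl4 and Xkr5. Tlr9 had the least close likeness, with Pld4 (0.954), Itm2c (0.93) and Kif9 (0.914). Among the 10 themselves, Tlr6 and Tlr7 were most alike (r = 0.981), then Tlr3 and Tlr7 (0.969), and Tlr1 and Tlr5 were most opposed (-0.955).

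Libraries of Ahr-/- BMMs varied more than those of Ahr+/+ BMMs in several of the genes. The median relative SD over the 8 groups of a genotype was 38.2% in Ahr-/- and 11.4% in Ahr+/+ BMMs for Tlr7, 28.3% and 8.84% for Tlr13, 35.4% and 19.2% for Tlr3, 32.0% and 15.7% for Tlr4 and 31.8% and 21.6% for Tlr8. Part of this spread went with the replicate number of the libraries, which may stand for the mouse but is not said to by the labels. Deviations of equal-numbered libraries from their group means had correlations of -0.25 to 0.64 in Ahr-/- BMMs, above 0.1 in 45 of 48 pairs of groups, and of -0.09 to 0.32 in Ahr+/+ BMMs, above 0.1 in 32 of 48. In Ahr-/- BMMs, libraries 1 and 2 were both below libraries 3 and 4 in 7 of 8 groups for Tlr3, Tlr4, Tlr7, Tlr8 and Tlr13 and in 8 of 8 for Tlr6. The exception was the unactivated group at 3 h. Such an order in at least 6 of 8 groups was seen in 6 of the 10 genes and in 18.3% of all genes tested in Ahr-/- BMMs, and in 0 of the 10 and 2.12% in Ahr+/+ BMMs. For Tlr4 in Ahr+/+ BMMs, libraries 1 and 2 were the higher ones in 6 of 8 groups. This order was noticed in the values and has no test.

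**Figure D5:**
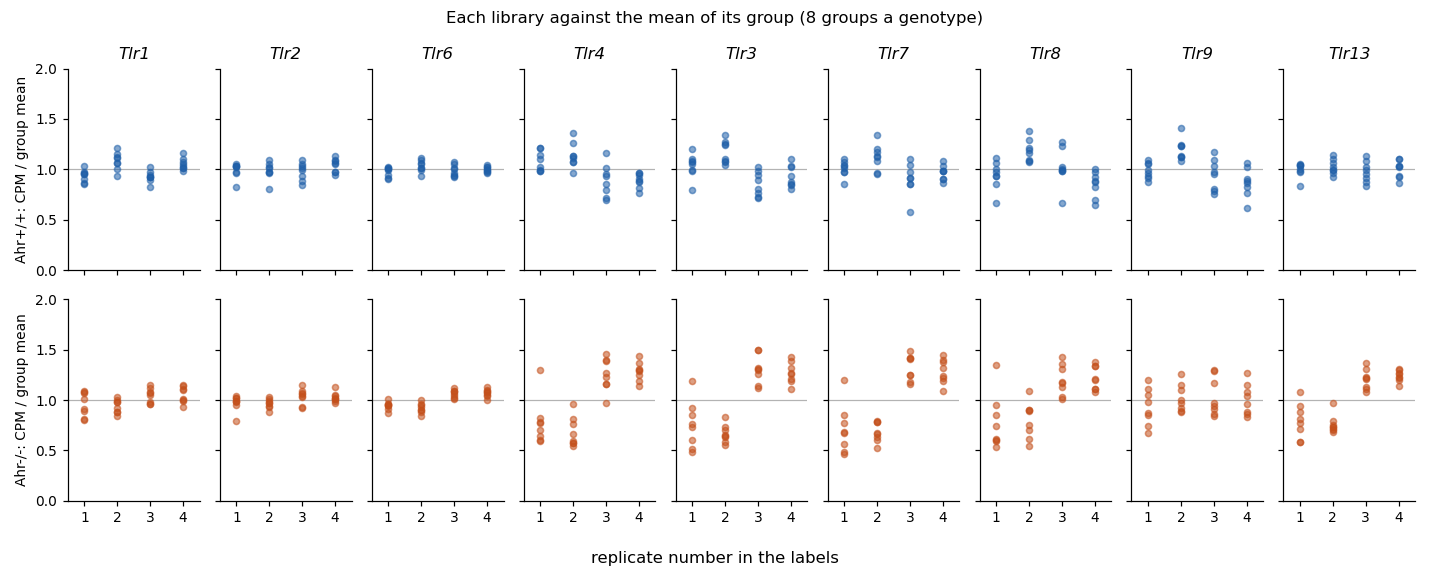
CPM of each library divided by the mean of its group of 4, by replicate number, for 9 TLR genes in the 8 groups of Ahr+/+ (top) and Ahr-/- (bottom) BMMs. For Tlr3, Tlr4, Tlr7, Tlr8 and Tlr13 in Ahr-/- BMMs, libraries 1 and 2 lie mostly below 1 and libraries 3 and 4 mostly above it. Library 1 of the unactivated group at 3 h is among the exceptions. Tlr1, Tlr2 and Tlr6 stay closer to 1.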

How the data were processed

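RNA was sequenced from 64 libraries of BMMs as paired reads (TruSeq stranded mRNA). The authors aligned them with HISAT2 2.1.0 to mm10 and counted genes by strand with HTSeq 0.9.1, and the deposited files hold raw counts for each library. A second deposited table holds the authors' log2-scale values from the variance-stabilising transformation of DESeq2. The submitters' processing notes also name bcl2fastq 2.19.0.316. Of the HTSeq entries, 5 name no gene, hold 19.2% to 25.1% of each library and were left out. Depth was 12152496 to 50644601 counts on genes, with 1 library of 233047331, so that 1 count is a larger share of a shallow library. Intervals on counts cover counting error only.

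The counts were fitted in R 4.3.3 with edgeR 4.0.16 (quasi-likelihood, TMM, filterByExpr with a minimum count of 10, 16 group means over 64 libraries), with Benjamini-Hochberg adjustment over 14537 genes and calls at an adjusted p below 0.01. Library groups were taken from the labels. Alternatives used DESeq2 1.42.0, limma 3.58.1 on the deposited log2 values, other filters and scalings, the compared groups alone, an identifier covariate, a replicate block and leaving out each library. The replicate number was the block within a genotype. Cells came from 4 mice per genotype, but the sources used here do not say that equal numbers mark the same mouse. Correlations of the deviations of equal-numbered libraries had a median of 0.146 in Ahr+/+ (48 pairs) and 0.407 in Ahr-/- BMMs, and not every pair was above 0.1. The genotype comparisons used a random block in limma voom. Levels per kilobase used merged exons of GENCODE M21, whereas counting used M22. The main edgeR fit was tested on simulated data for BaP against DMSO at 20 h, with libraries simulated as independent of each other. The TLR genes, the pathway and marker lists and the genes named (the TLR genes, key adaptors and regulators, and the most changed gene of each list) were chosen with earlier results of these data known.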

Additional observations from a re-analysis of the deposited data

Results flagged for a closer look

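Of 160 groups of 4 libraries (10 genes in 16 groups), 7 held a library far from the other 3, about as many as the 1 in 20 that chance gives. In unactivated Ahr-/- BMMs at 3 h, this was library 2 for Tlr3 (9.29 CPM, others 17.6 to 18.8), for Tlr7 (40.6 CPM, others 84.4 to 92.8) and for Tlr13 (292 CPM, others 448 to 473). In Ahr+/+ BMMs with hkSE at 20 h, library 2 with BaP was low in Tlr2 (413 CPM, others 538 to 561) and library 4 with DMSO was low in Tlr9 (14.8 CPM, others 26.2 to 28.1). The remaining ones were Tlr5 in Ahr+/+ BMMs with I3C at 20 h (library 2, 0.0413 CPM, others 0) and in Ahr-/- BMMs with BaP at 20 h (library 3, 0.0265 CPM, others 0), each from 1 count.

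By a test of the difference itself in edgeR, 12 of 80 effects differed between genotypes or times. For activation between times this was 11 of 20, beside 47.8% (Ahr+/+) and 44.7% (Ahr-/-) of all genes tested. That is near the share of all genes, and nothing particular to the TLR genes is read from it. For activation between genotypes it was 1 of 20, beside 0.0138% at 3 h and 4.41% at 20 h. For ligands between genotypes it was 0 of 40, beside at most 0.0138%. The response of Tlr9 to hkSE at 20 h was lower in Ahr-/- than in Ahr+/+ BMMs by a log2 difference of -1.34. Against 3 h, the response at 20 h was lower in Ahr+/+ BMMs for Tlr2 (-0.81), Tlr3 (-3.05), Tlr5 (-3.17), Tlr6 (-0.90), Tlr7 (-1.78) and Tlr8 (-2.82), and in Ahr-/- BMMs for Tlr3 (-3.10), Tlr6 (-1.19), Tlr7 (-1.88), Tlr8 (-2.62) and Tlr9 (-1.37).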

How the results depend on the processing

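No called log2 fold change of the TLR genes changed sign under the alternatives run. Over the 4 comparisons of activation 29 calls were made, with 28 to 33 under the alternatives and 29 to 30 without single libraries. For the difference of activation between genotypes there was 1 call, Tlr9, with 1 to 1 without single libraries and 2 with the replicate block (Tlr6 added). Between the genotypes 2 calls were made, with 2 to 2 without single libraries, 1 with the identifier series as covariate, 1 in the compared groups alone, 4 with the replicate block and 4 at an adjusted p below 0.05. Ligands gave 0 calls, with 0 to 0 without single libraries and 1 with the replicate block (Tlr13 with BaP in Ahr+/+ BMMs at 20 h), and 0 calls by genotype or between BaP and I3C under any setting run. The replicate block lost no call of the TLR genes and added 13 in all, each given beside its result. Between the times 18 calls were made (15 to 21, and 16 to 19 without single libraries), and for the difference of activation between times 11 (11 to 13, and 10 to 12 without single libraries). Without single libraries, calls were lost for Tlr1 in Ahr-/- BMMs between the times with hkSE (6 fits) and for Tlr5 in Ahr+/+ BMMs (4 fits, and 3 for its difference of activation between times). The identifier covariate also ended the calls of Tlr4 with activation in Ahr+/+ BMMs at 3 h and of Tlr2 between the times in activated Ahr-/- BMMs (adjusted p = 0.0475). The causes were not tested. Depth limits Tlr5, with 0 counts in 18 libraries, and in Ahr+/+ BMMs at 3 h the 95% intervals for BaP still held differences of 0.62 on the log2 scale. Where 1 genotype and 1 identifier series coincide, at 20 h with hkSE, they cannot be told apart. The same holds for time and series in activated Ahr-/- BMMs with DMSO.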
